A study of Mus musculus with 12 samples.

Results

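The interferon-gamma signalling core examined here was a set of 7 genes, taken by symbol from a table of 55401 genes measured by bulk RNA sequencing of mouse breast tumors. The genes were *Ifng* (the cytokine), *Ifngr1* and *Ifngr2* (the receptor chains), *Jak2* (the kinase), *Irf1* (a transcription factor), *Socs1* (a feedback inhibitor) and *Ido1* (an enzyme that breaks down tryptophan). The genes were picked by name, at a time when earlier results of these data were known. All 7 genes were found and passed the filter on low values (TPM of 1 or more in 3 or more libraries). The tumors came from 4T1 cells, a mouse mammary carcinoma line, placed in the mammary tissue of Balb/c mice, and 12 tumor libraries were made. They fell into 4 groups of 3, which shared the cell line, the mouse strain and repeated dosing from a tumor size of 100 mm3. The control group received an isotype protein (IgG1-Fc), the IL10-Fc group recombinant interleukin-10 joined to an Fc part, the aCSF1R group an antibody that binds CSF1R, the macrophage receptor for colony stimulating factor 1, and the BF10 group a fusion in which this antibody carries interleukin-10. Per the study's methods, the interleukin-10 in BF10 is human and sits at the C terminus of the antibody clone AFS98. The labels give 6 doses while the series text gives 4, so the number of doses is uncertain, and the age of the mice is not in the labels. Whether libraries with the same number in different groups share an animal or a day is not stated. The labels do not say that the 3 libraries of a group came from separate mice, so p-values measure the spread between these samples, which may be technical.

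Interferon-gamma is made mainly by activated T cells and NK cells. It binds a receptor built from the IFNGR1 chain, which holds the ligand, and the IFNGR2 chain, which brings in the kinase JAK2. The receptor-bound kinases start a signal that acts through gamma-activated sites (GAS) in target promoters. An early target is IRF1, itself a transcription factor that binds interferon regulatory factor (IRF) elements and switches on guanylate-binding proteins, antigen presentation genes, SOCS1 and IDO1. SOCS1 binds the kinases and shuts the signal down, while IDO1 starts the breakdown of tryptophan and thereby restrains T cells. In tumors the pathway is known both for antigen presentation and for such braking genes.

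The promoters of the 2 transcriptional targets with a motif close to the start are shown because they hold the 2 kinds of element through which the pathway is known to act. RefSeq promoter windows on GRCm38.p6, 250 bases before each start, were found for 6 of the 7 genes. *Ido1* had no entry. Both strands were searched for the GAS letters TTCNNNGAA and for the IRF element letters, GAAA and GAAA with any 2 bases between them. Of 32851 promoter windows of this length, 7.02% held the first and 2.98% the second. The *Irf1* window (chr11:53769764-53770013, plus strand) holds a GAS match, TTCCCCGAA, 90 to 82 bases before the start, while the window of a second annotated *Irf1* start holds none. The *Socs1* window (chr16:10785537-10785786, minus strand) holds 2 IRF elements that overlap each other, GAAAGAGAAA at 83 to 74 and GAAACCGAAA at 77 to 68 bases before the start. Both sequences run 5′ to 3′ along the gene's strand and end at the base before the start, and capitals mark the matches.
Irf1: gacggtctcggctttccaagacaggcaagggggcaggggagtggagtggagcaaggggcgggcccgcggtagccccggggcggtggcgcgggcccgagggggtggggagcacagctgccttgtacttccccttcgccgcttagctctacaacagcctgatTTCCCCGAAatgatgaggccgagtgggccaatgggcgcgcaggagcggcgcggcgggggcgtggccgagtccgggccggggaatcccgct
Socs1: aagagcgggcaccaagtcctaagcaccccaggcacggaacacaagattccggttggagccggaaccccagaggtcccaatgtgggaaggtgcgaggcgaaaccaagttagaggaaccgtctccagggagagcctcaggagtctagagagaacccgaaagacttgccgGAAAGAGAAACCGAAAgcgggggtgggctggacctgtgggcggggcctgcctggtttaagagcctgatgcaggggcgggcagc
*Ifng* held 1 GAS match, TTCAGAGAA, 249 to 241 bases before its start, and no IRF element. The windows of *Ifngr1*, *Ifngr2* and *Jak2* held neither set of letters. These matches are descriptions of sequence, and binding was not measured.

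The libraries held an estimated 29800000 to 34800000 reads each. The sum of the deposited FPKM (fragments per kilobase, scaled to the depth of each library) separated a higher-sum set of 5 libraries (782919 to 921581) from a lower-sum set of 7 (609695 to 648413). The higher-sum libraries were control 4 and 7, IL10-Fc 7, aCSF1R 8 and BF10 6, so each group held both kinds and the control group held 2 of its 3 in the higher-sum set. Mitochondrial genes took 5.90 to 9.26% of the total in the higher-sum set and 3.14 to 3.96% in the lower-sum set, and ribosomal protein genes took 21.3 to 26.1% and 12.9 to 15.5%. Levels are given as TPM, in which the FPKM of each library are brought to the same total. TPM can be compared between genes since it is per length. Changes are differences in log2(TPM + 1), on which fold changes of low genes come out too small. Calls were made with limma and needed an adjusted p (Benjamini-Hochberg over 15504 genes) below 0.05 together with a change of 1.5-fold or more. Markers of the labelled tissue were present in each library, with the epithelial keratins *Krt8* at 239 to 1090 TPM and *Krt18* at 372 to 1079 TPM, and the basal keratin *Krt5* was listed at 0 in 2 libraries. The pan-leukocyte gene *Ptprc* lay between 15.0 and 72.1 TPM.

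*Irf1* had the highest median over the 12 libraries at 212 TPM, followed by *Jak2* at 158 TPM, *Ifngr1* at 59.7 TPM, *Ifngr2* at 45.6 TPM, *Socs1* at 8.08 TPM, *Ido1* at 6.12 TPM and *Ifng* at 1.53 TPM. The ranges of all neighbours in this order overlapped over the 12 libraries. The range of *Jak2* (98.3 to 248 TPM) overlapped that of *Ifngr1* (32.7 to 103 TPM) only through BF10 tumor 3, that of *Ifngr2* (9.09 to 62.5 TPM) overlapped that of *Socs1* (5.07 to 10.04 TPM) only through aCSF1R tumor 8, and that of *Ido1* reached down to that of *Ifng* only through BF10 tumor 3. The median of *Irf1* stood at the 95.8th percentile of the tested genes and that of *Ifng* at the 13.8th. The cytokine thus rested on few reads, an estimated 20 to 74 per library, against 357 to 832 for *Socs1*, 81 to 448 for *Ido1* and at least 937 for the other 4 genes.

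**Figure D1:**
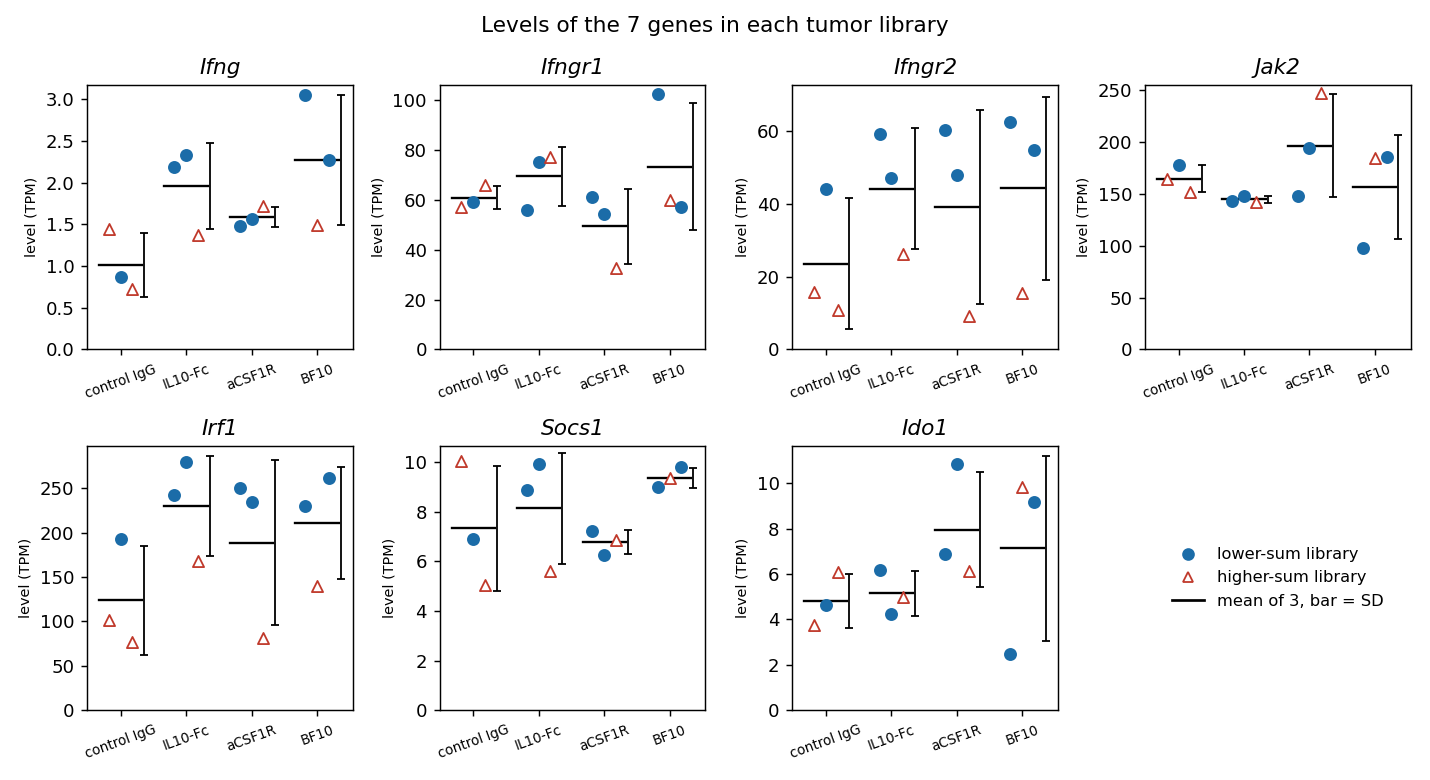
TPM level of each of the 7 genes (vertical axes, starting at 0) in the 12 tumor libraries by treatment group. Filled circles are lower-sum and open triangles higher-sum libraries, the line is the mean of 3 and the bar its SD. The triangles lie below the circles for Ifngr2 and Irf1, with 9.09 to 26.3 against 44.2 to 62.5 TPM for Ifngr2.

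None of the 7 genes passed the threshold in any comparison of 2 groups with limma. In BF10 against control 0 of 7 were called, beside 0% of all tested genes. The same count was 0 of 7 in IL10-Fc against control (0.00645% of all genes), aCSF1R against control (0.568%), BF10 against IL10-Fc (0%), BF10 against aCSF1R (0.735%) and IL10-Fc against aCSF1R (0.542%). The moderated F-test over the 4 groups called 0 of 7 as well (0.522% of all genes), with an adjusted p of 0.991 for each gene. At an unadjusted p below 0.05, 1 of 7 was reached in BF10 against control (*Ifng*, higher in BF10, as were 0.987% of all genes). It was 0 of 7 in IL10-Fc against control (1.44% of all genes), aCSF1R against control (3.46%), BF10 against IL10-Fc (0.271%), BF10 against aCSF1R (4.26%) and IL10-Fc against aCSF1R (3.56%). The smallest adjusted p among the 42 gene and comparison pairs was 0.738. The standard errors ran from 0.26 for *Ifng* to 0.77 for *Ifngr2* on the log2 scale, so the interval of *Ifngr2* was the widest.

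With the library set as a term in the model, 0 of 7 were called in BF10 against control (0.00645% of all genes), IL10-Fc against control (0.0258%), aCSF1R against control (2.01%), BF10 against IL10-Fc (0%), BF10 against aCSF1R (2.82%), IL10-Fc against aCSF1R (2.13%) and the test over 4 groups (2.12%). Sample quality weights of limma, which ran from 0.0736 to 61.7, gave other counts. With them *Ifng*, *Ifngr2* and *Irf1* were called in BF10 against control (3 of 7, beside 57.8% of all genes) and in IL10-Fc against control (3 of 7, beside 59.8%), and *Ifngr2* and *Irf1* in aCSF1R against control (2 of 7, beside 63.8%). *Ido1* was called in IL10-Fc against aCSF1R (1 of 7, beside 12.7%), and 6 of 7 genes over the 4 groups (beside 82.6%), while 0 of 7 were called in BF10 against IL10-Fc (0.239%) and BF10 against aCSF1R (3.0%).

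Against control, 6 of 7 genes had a positive difference in BF10, 6 of 7 in IL10-Fc and 5 of 7 in aCSF1R. The median of the 7 was 0.36, 0.18 and 0.38, beside 0.32, 0.35 and 0.24 for all 15504 genes, and the 3 comparisons share their control libraries. With median-of-ratios scaling, which brought the median of all genes to 0.01, -0.01 and 0.03, the positive counts were 5, 3 and 4 of 7 and the medians 0.02, -0.26 and 0.27. Under that scaling the direction turned for *Ifngr1* in BF10 (-0.16), for *Ifngr1*, *Socs1* and *Ido1* in IL10-Fc (-0.27, -0.26 and -0.30) and for *Jak2* in aCSF1R (-0.01), and the median of the 7 changed sign for IL10-Fc.

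The cytokine gene had the lowest level of the 7. *Ifng* (ENSMUSG00000055170, chr10:118441046-118445892, plus strand, 4 exons in its longest transcript) was at 1.45, 0.873 and 0.721 TPM in control tumors 4, 5 and 7. It was at 2.18, 2.33 and 1.37 TPM in IL10-Fc tumors 2, 4 and 7, at 1.48, 1.56 and 1.71 TPM in aCSF1R tumors 4, 6 and 8, and at 3.05, 1.495 and 2.27 TPM in BF10 tumors 3, 6 and 7. In TPM the BF10 and aCSF1R tumors lay above each control tumor, while IL10-Fc tumor 7 lay below control tumor 4. In the deposited FPKM both groups overlapped with control, whose tumor 4 was at 1.29 FPKM against a lowest value of 1.24 in BF10 and 0.91 in aCSF1R. In estimated reads, the lowest library was control tumor 5 with 20 (exact 95% Poisson interval 12.2 to 30.9, counting error only) and the highest BF10 tumor 3 with 74 (58.1 to 92.9). The gap between BF10 tumor 6 (1.495 TPM, 50 reads) and control tumor 4 (1.45 TPM, 50 reads) was smaller than counting error alone. The intervals of aCSF1R tumors 4 and 6, with 37 reads each (26.1 to 51.0), overlapped that of control tumor 4 with 50 (37.1 to 65.9). In reads these aCSF1R tumors lay below control tumor 4 and in TPM above it.

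The mean of *Ifng* was 2.27 ± 0.78 TPM in BF10 and 1.01 ± 0.38 TPM in control (SD, n = 3 each), a log2 difference of 0.69 (SE 0.26, 95% interval 0.12 to 1.26, adjusted p = 0.789 and unadjusted p = 0.0224 in limma). Without each library in turn the difference stayed between 0.52 (without BF10 tumor 3) and 0.87. IL10-Fc averaged 1.96 ± 0.52 TPM and differed from control by 0.56 (interval -0.01 to 1.13, adjusted p = 0.738). aCSF1R averaged 1.58 ± 0.12 TPM and differed by 0.38 (interval -0.20 to 0.95, adjusted p = 0.894). Between BF10 and IL10-Fc the difference was 0.13 (interval -0.44 to 0.70) and between BF10 and aCSF1R 0.31 (interval -0.26 to 0.88), so a difference of up to 0.70 or 0.88 in favour of BF10 was compatible with these tumors. With the library set as a term in the model, the BF10 difference from control was 0.62 (SE 0.23, unadjusted p = 0.0194, adjusted p = 0.993 in limma).

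Within the lower-sum set, control tumor 5 had the lowest *Ifng* level (0.873 TPM) and the 6 treated tumors lay between 1.48 and 3.05 TPM. Within the higher-sum set the 2 control tumors had 0.721 and 1.45 TPM and the 3 treated tumors 1.37 to 1.71 TPM. T and NK cell markers, the cells that make the cytokine, summed to 72.8 to 112 TPM in control, 74.1 to 114 TPM in IL10-Fc, 84.2 to 166 TPM in aCSF1R and 59.2 to 131 TPM in BF10 tumors. The 14 marker genes of this list had a median difference from control of 0.07 in BF10, 0.15 in IL10-Fc and 0.04 in aCSF1R, below the 0.32, 0.35 and 0.24 of all genes, with 0 of 14 called in each. With the library set as a term the medians were 0.01, 0.07 and -0.16, and 1 of 14, *Klrk1*, was called, lower in aCSF1R than in control (beside 1.93% of all genes lower). No marker was at 0 in every library. In bulk tissue fewer cells of a type and less RNA per cell cannot be told apart.

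The receptor chains behaved differently from each other. *Ifngr1* (ENSMUSG00000020009, chr10:19591949-19610229, plus strand), which encodes the ligand-binding chain, was at 57.3, 59.2 and 66.1 TPM in control tumors 4, 5 and 7 and at 55.8, 75.4 and 77.2 TPM in IL10-Fc tumors 2, 4 and 7. It was at 61.4, 54.3 and 32.7 TPM in aCSF1R tumors 4, 6 and 8 and at 103, 60.12 and 57.2 TPM in BF10 tumors 3, 6 and 7. All groups overlapped, and the extremes were aCSF1R tumor 8 and BF10 tumor 3. The difference from control was 0.22 in BF10 (adjusted p = 0.789), 0.18 in IL10-Fc (adjusted p = 0.764) and -0.34 in aCSF1R (interval -1.002 to 0.32, adjusted p = 0.894). aCSF1R tumors averaged 49.4 ± 15.0 TPM and BF10 tumors 73.3 ± 25.4 TPM, a difference of 0.56 (interval -0.10 to 1.22, unadjusted p = 0.0909, adjusted p = 1 in limma). Without BF10 tumor 3, the BF10 difference from control was -0.05.

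*Ifngr2* (ENSMUSG00000022965, chr16:91547072-91565623, plus strand), the signalling chain, was at 15.7, 44.2 and 10.8 TPM in control tumors 4, 5 and 7 and at 59.1, 47.1 and 26.3 TPM in IL10-Fc tumors 2, 4 and 7. It was at 60.2, 47.8 and 9.09 TPM in aCSF1R tumors 4, 6 and 8 and at 62.5, 15.5 and 54.9 TPM in BF10 tumors 3, 6 and 7. Low values stood in each group, and each of them was a higher-sum library. The lower-sum tumors lay between 44.2 and 62.5 TPM and the higher-sum tumors between 9.09 and 26.3 TPM, with no overlap. With the groups held, the higher-sum set was lower by 1.74 on the log2 scale (SE 0.20, limma adjusted p = 3.2e-05), and the call remained without each library in turn (12 of 12). The differences from control were 0.91 in BF10, 1.05 in IL10-Fc and 0.59 in aCSF1R with adjusted p of 0.789, 0.738 and 0.894, and with the set as a term they were 0.33, 0.47 and 0.01. They rested on single libraries, running from 0.50 (without control tumor 7) to 1.52 (without BF10 tumor 6) in BF10, from 0.64 (without control tumor 7) to 1.61 (without control tumor 5) in IL10-Fc, and from 0.10 (without aCSF1R tumor 4) to 1.40 (without aCSF1R tumor 8) in aCSF1R.

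The ratio of the receptor chains showed the same split. *Ifngr1* over *Ifngr2* was 0.94 to 1.64 in the 7 lower-sum libraries and 2.94 to 6.13 in the 5 higher-sum libraries, whatever the treatment. The mitochondrial and ribosomal protein shares moved with the same libraries, and their part in the ratio was not tested. Over all genes 59.2% were called between the sets, 5.23% higher and 54.0% lower in the higher-sum set, so 2 called of the 7 core genes was a share below that background.

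In TPM the kinase varied little among control and IL10-Fc tumors. *Jak2* (ENSMUSG00000024789, chr19:29251828-29313080, plus strand, 25 exons in its longest transcript) was at 164, 178 and 152 TPM in control tumors 4, 5 and 7 and at 143, 149 and 143 TPM in IL10-Fc tumors 2, 4 and 7. It was at 148, 194 and 248 TPM in aCSF1R tumors 4, 6 and 8 and at 98.3, 185 and 185 TPM in BF10 tumors 3, 6 and 7. On that scale IL10-Fc tumors lay just below each control tumor, and the other groups overlapped with control. The extremes were again BF10 tumor 3 and aCSF1R tumor 8, in the reverse order of *Ifngr1*. With median-of-ratios scaling *Jak2* ran from 134.3 to 249.7 in control and from 108.6 to 156.4 in IL10-Fc tumors, so these groups overlapped. The IL10-Fc mean was 145 ± 3.27 TPM and the control mean 165 ± 13.1 TPM, a difference of -0.18 (interval -0.79 to 0.42, adjusted p = 0.744). The difference from control was -0.13 in BF10 (adjusted p = 0.820) and 0.23 in aCSF1R (adjusted p = 0.894).

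*Irf1* (ENSMUSG00000018899, chr11:53770014-53778374, plus strand), the transcription factor whose promoter with its GAS match is printed above, was at 101.4, 193 and 76.8 TPM in control tumors 4, 5 and 7 and at 243, 280 and 168 TPM in IL10-Fc tumors 2, 4 and 7. It was at 250, 235 and 81.5 TPM in aCSF1R tumors 4, 6 and 8 and at 231, 140 and 262 TPM in BF10 tumors 3, 6 and 7. In TPM the higher-sum tumors of each group were the low ones, and all groups overlapped. The higher-sum set ran from 76.8 to 168 TPM and the lower-sum set from 193 to 280 TPM, a difference of -1.03 (SE 0.14, limma adjusted p = 8.3e-05) with the groups held that was called in each of the 12 fits that left out 1 library. In the deposited FPKM the sets overlapped, with higher-sum IL10-Fc tumor 7 at 131.7 and lower-sum control tumor 5 at 121.6. IL10-Fc tumors then lay above each control tumor. With median-of-ratios scaling IL10-Fc (184.3 to 226.3) and BF10 (176.4 to 205.2) both lay above control (115.3 to 154.2).

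Group means of *Irf1* were 124 ± 61.2 TPM in control, 230 ± 56.8 TPM in IL10-Fc, 189 ± 93.4 TPM in aCSF1R and 211 ± 63.5 TPM in BF10 (SD, n = 3 each). The differences from control were 0.97 in IL10-Fc (interval -0.08 to 2.02, adjusted p = 0.738), 0.82 in BF10 (interval -0.22 to 1.87, adjusted p = 0.789) and 0.55 in aCSF1R (adjusted p = 0.894). With the library set as a term they were 0.62 (SE 0.20, unadjusted p = 0.00908, adjusted p = 0.942), 0.48 (SE 0.20, unadjusted p = 0.0330, adjusted p = 0.993) and 0.21 (SE 0.20, adjusted p = 1.00). Among lower-sum tumors control tumor 5 had the lowest value, 193 TPM, against 231 to 280 TPM in the 6 treated tumors. Without 1 library the differences ran from 0.68 (without control tumor 7) to 1.34 (without control tumor 5) in IL10-Fc, from 0.54 to 1.197 without the same 2 tumors in BF10, and from 0.27 (without control tumor 7) to 1.07 (without aCSF1R tumor 8) in aCSF1R. A single lower-sum control library stands behind the comparison within that set, so its spread within the set is unknown.

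**Figure D2:**
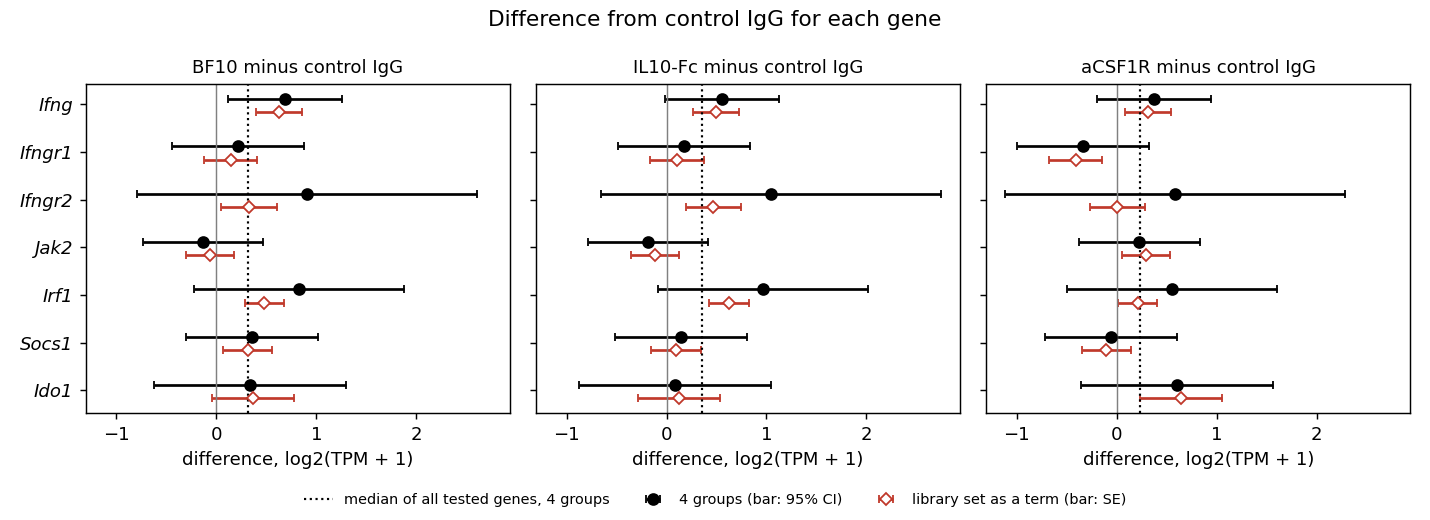
Difference of each gene from control IgG in log2(TPM + 1) (horizontal axis) for BF10, IL10-Fc and aCSF1R. Filled circles are the model of 4 groups with 95% intervals, open diamonds the model with the library set as a term with SE, and the dotted line the median of all tested genes in the first model. Intervals for Ifngr2 are the widest (BF10: -0.79 to 2.61), and only that of Ifng in BF10 lies above 0 as a whole (0.12 to 1.26).

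In TPM the feedback gene had the smallest span of the 7 over the libraries. *Socs1* (ENSMUSG00000038037, chr16:10782240-10785536, minus strand) was at 10.04, 6.89 and 5.07 TPM in control tumors 4, 5 and 7 and at 8.90, 9.92 and 5.61 TPM in IL10-Fc tumors 2, 4 and 7. It was at 7.25, 6.26 and 6.86 TPM in aCSF1R tumors 4, 6 and 8 and at 8.99, 9.37 and 9.80 TPM in BF10 tumors 3, 6 and 7. In TPM, BF10 tumors lay above each aCSF1R tumor, and both groups lay inside the range of the control tumors. The highest library was 1.98 times the lowest in TPM, against 2.52 times for *Jak2* and 6.87 times for *Ifngr2*. With median-of-ratios scaling *Socs1* ran more widely, from 4.63 in an aCSF1R tumor to 15.3 in a control tumor. On that scale *Irf1* ran from 115 in control to 226 in IL10-Fc, a narrower span than that of *Socs1*. BF10 averaged 9.39 ± 0.40 TPM and aCSF1R 6.79 ± 0.50 TPM, a difference of 0.42 (interval -0.24 to 1.08, unadjusted p = 0.192, adjusted p = 1 in limma). Against control the differences were 0.36 in BF10 (adjusted p = 0.789), 0.15 in IL10-Fc (adjusted p = 0.798) and -0.06 in aCSF1R (adjusted p = 0.947).

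*Ido1* (ENSMUSG00000031551, chr8:24584136-24597009, minus strand) was at 3.75, 4.62 and 6.11 TPM in control tumors 4, 5 and 7 and at 6.19, 4.26 and 4.99 TPM in IL10-Fc tumors 2, 4 and 7. It was at 6.88, 10.9 and 6.13 TPM in aCSF1R tumors 4, 6 and 8 and at 2.46, 9.83 and 9.16 TPM in BF10 tumors 3, 6 and 7. In TPM the aCSF1R tumors lay above each control tumor, with aCSF1R tumor 8 and control tumor 7 nearly level, and the BF10 group held both the lowest tumor and the next highest after aCSF1R tumor 6. Means were 7.96 ± 2.55 TPM in aCSF1R and 4.83 ± 1.195 TPM in control, a difference of 0.60 (interval -0.36 to 1.57, adjusted p = 0.894). The difference from control was 0.33 in BF10 (adjusted p = 0.789) and 0.09 in IL10-Fc (adjusted p = 0.919). Without BF10 tumor 3, whose *Ifng* was the highest of the 12 and whose *Ido1* was the lowest, the BF10 difference was 0.87. Of the macrophage markers 7 of 12 were called lower in aCSF1R than in control (beside 0.568% of all genes, each of them lower). In BF10 against control 0 of 12 were called (beside 0% of all genes). The 12 markers summed to 132 to 938 TPM in aCSF1R and 2310 to 3513 TPM in control tumors. Their sums were 2204 to 3788 TPM in IL10-Fc and 2513 to 4167 TPM in BF10 tumors. The part of these markers in the *Ido1* values was not tested.

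Groups without overlap in TPM occurred in 5 of the 42 gene and comparison pairs. In BF10 against control *Ifng* was higher (1 of 7, beside 2.36% of all genes), and in IL10-Fc against control *Jak2* was lower (1 of 7, beside 1.78%). In aCSF1R against control *Ifng* and *Ido1* were higher (2 of 7, beside 1.61%), and in BF10 against aCSF1R *Socs1* was higher (1 of 7, beside 4.33%). None of these 5 passed the threshold of the test. In the deposited FPKM only *Jak2* stayed apart of the 5, and with median-of-ratios scaling 0 of the 5 did. *Irf1* was free of overlap in IL10-Fc against control on both of those scales (higher). It was also free of overlap in BF10 against control with median-of-ratios scaling (higher), and *Ido1* in IL10-Fc against aCSF1R in FPKM (lower). Shares of all genes were computed in TPM only, so the results on those 2 scales cannot be read against a background. In TPM 0 of 7 genes were free of overlap in each of the other directions. The shares of all genes there were 1.17% (lower in BF10 than control), 4.75% (higher in IL10-Fc than control) and 3.68% (lower in aCSF1R than control). They were 0.619 and 1.51% (higher and lower in BF10 than IL10-Fc) and 1.58% (lower in BF10 than aCSF1R). For IL10-Fc against aCSF1R they were 5.9 and 1.6% (higher and lower).

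Within the 7 lower-sum libraries the level of *Ifng* was compared with each of the other 6 genes by correlation of log2(TPM + 1), with exact two-sided permutation tests and adjustment over these 6. The libraries were 1 control and 6 treated tumors, permuted without regard to group. Differences between groups were thus left in, and the tests cannot separate them from relations within a group. *Socs1* gave Pearson's r = 0.77 (exact p = 0.0357, adjusted 0.179) and Spearman's rho = 0.79 (exact p = 0.0480, adjusted 0.288), and r was 0.73 without the 2 libraries farthest from the median of *Ifng*. *Irf1* gave r = 0.62 (exact p = 0.127, adjusted 0.179) and rho = 0.36 (exact p = 0.444, adjusted 0.444), and r was 0.01 without those 2 libraries, so the value rested on them. *Ifngr1* gave r = 0.62 (exact p = 0.141) and rho = 0.46 (exact p = 0.302), *Ifngr2* r = 0.60 (exact p = 0.149) and rho = 0.39 (exact p = 0.396), *Jak2* r = -0.65 (exact p = 0.111) and rho = -0.39 (exact p = 0.396), and *Ido1* r = -0.34 (exact p = 0.454) and rho = -0.46 (exact p = 0.302). The adjusted p of r was 0.179 for the first 3 and 0.454 for *Ido1*, and that of rho 0.444 for each. Without the same 2 libraries r was 0.84 for *Ifngr1*, 0.68 for *Ifngr2*, -0.87 for *Jak2* and -0.88 for *Ido1*, over 5 libraries and with no test. None of the 6 passed 0.05 after adjustment. The 5 higher-sum libraries are too few for a correlation, and in them *Ifng* at 1.45, 0.721, 1.37, 1.71 and 1.495 TPM stood with *Socs1* at 10.04, 5.07, 5.61, 6.86 and 9.37 TPM (control 4, control 7, IL10-Fc 7, aCSF1R 8, BF10 6).

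Across all 12 libraries, with the mean of each library set taken out, the pair with the highest correlation by size was *Ifngr1* and *Jak2* at r = -0.90. It was -0.75 without aCSF1R tumor 8 and BF10 tumor 3, the 2 libraries farthest from the median of *Ifngr1*. *Ifngr2* and *Irf1* had r = 0.81, and 0.57 without IL10-Fc tumor 7 and aCSF1R tumor 8. *Jak2* and *Ido1* had r = 0.66, and 0.59 without BF10 tumor 3 and aCSF1R tumor 8. *Ifng* and *Socs1* had r = 0.64, and 0.49 without control tumors 5 and 7. *Ifngr1* and *Ifngr2* had r = 0.61, and 0.38 without BF10 tumor 3 and aCSF1R tumor 8. These values are descriptions over 12 libraries that share a depth and a composition per library, and the 7 levels of a library come from the same sum. Differences between the treatment groups were left in them.

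**Figure D3:**
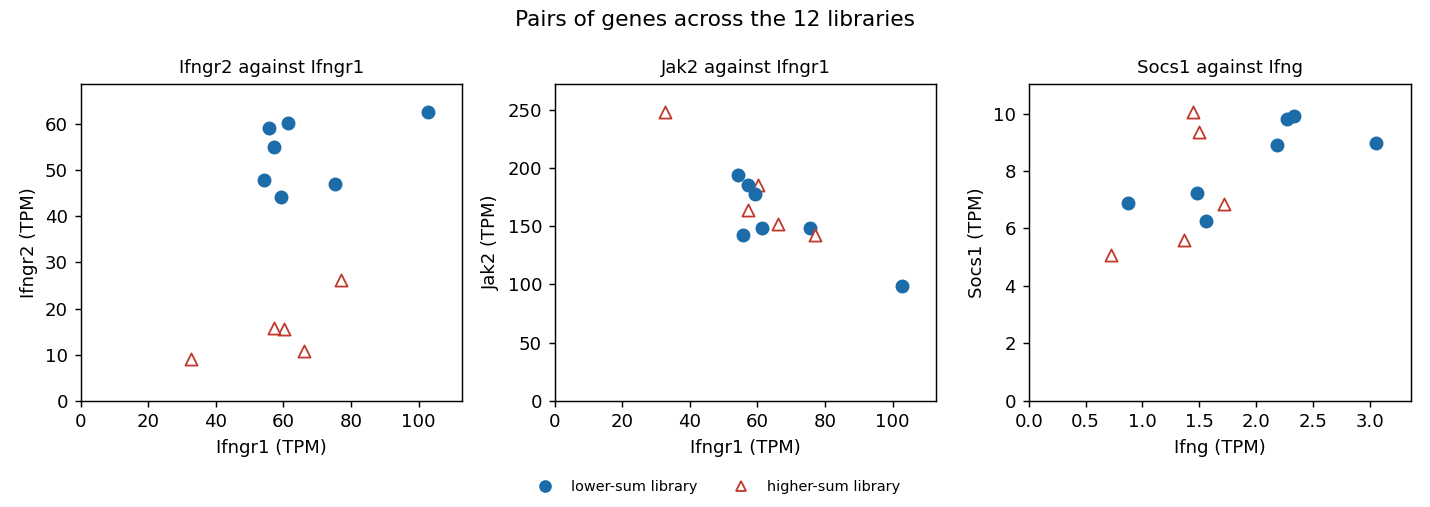
TPM levels of Ifngr2 against Ifngr1, Jak2 against Ifngr1 and Socs1 against Ifng, 1 point per library, axes starting at 0. Filled circles are lower-sum and open triangles higher-sum libraries. The sets separate by Ifngr2 and not by Ifngr1, and BF10 tumor 3 (103 TPM Ifngr1, 98.3 TPM Jak2) and aCSF1R tumor 8 (32.7 and 248 TPM) lie at the ends of the middle plot.

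The genes whose pattern was most like each member were taken by the same set-centred correlation over 12 libraries among the 15504 tested genes. For *Ifng* they were *Apol11a* (r = 0.91), *Apol10b* (0.90) and *Ifi47* (0.89), and 19 genes exceeded 0.8, among them 3 of a list of 30 target genes of interferon-gamma (*Gbp4* 0.87, *Iigp1* 0.86, *Cxcl9* 0.81). The 30 targets had a median r with *Ifng* of 0.54 and 29 of 30 were positive, beside a median of -0.10 for all genes. For *Socs1* the closest were *S100a14* (0.95), *Pnp2* (0.90) and *Ninj2* (0.88), with 13 genes above 0.8. For *Ido1* they were *Ldhd*, *Glrp1* and *Hr* (0.94, 0.93 and 0.93, with 139 above 0.8), and for *Jak2* *Pla2g4c*, *Ift74* and *Zfp280d* (0.95, 0.94 and 0.94, with 258). *Ifngr1* (*Rassf5*, *Gas6* and *Hdgfl3* at 0.98, 0.98 and 0.97), *Ifngr2* (*Fbln2*, *Denr* and *Gnptab* at 0.97, 0.96 and 0.95) and *Irf1* (*Arl6ip1*, *Gapdh* and *Gm13394* at 0.96, 0.96 and 0.96) had 816, 935 and 767 genes above 0.8. *Ifng* and *Socs1* thus had few genes above 0.8, *Ido1* and *Jak2* more, and the receptor chains and *Irf1* the most. No such count is given for other tested genes, so this order cannot be read against a background. *Ifng* rested on an estimated 20 to 74 reads per library, *Ido1* on 81 to 448 and *Socs1* on 357 to 832. The part of counting error and of library composition in these counts was not tested.

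Downstream of the core, the 30 target genes (guanylate-binding proteins, immunity-related GTPases, chemokines and antigen presentation genes) were all tested and 0 of 30 were called in each of the 6 comparisons. Their difference from control was positive in 29 of 30 in BF10, 29 of 30 in IL10-Fc and 27 of 30 in aCSF1R. The medians were 0.82, 0.85 and 0.53, beside 0.32, 0.35 and 0.24 for all genes. With the library set as a term the medians were 0.54, 0.51 and 0.30 (beside 0.07, 0.10 and 0.01 for all genes), positive in 30, 30 and 23 of 30, and with median-of-ratios scaling 0.45, 0.41 and 0.29, positive in 24, 23 and 20. The target with the smallest p was *Gbp5*, a guanylate-binding protein, at 41.5 TPM in BF10, 39.7 TPM in IL10-Fc and 16.7 TPM in control, with differences of 1.27 (SE 0.25, adjusted p = 0.789) and 1.21 (SE 0.25, adjusted p = 0.738) in limma. In aCSF1R it was *Gbp3*, of the same family, at 115.5 against 60.6 TPM, a difference of 0.92 (SE 0.22, adjusted p = 0.161). BF10 and IL10-Fc differed by a median of -0.02 over the 30 targets, beside -0.05 for all genes. Against aCSF1R the smallest p in both was that of *Cxcl9*, a chemokine that attracts T cells, at 149.6 TPM in BF10, 153.3 TPM in IL10-Fc and 87.5 TPM in aCSF1R (0.78 and 0.81, SE 0.37, adjusted p = 1.0 in limma for both).

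With the library set as a term, *Gbp5* was called in IL10-Fc against control (1.07, adjusted p = 0.0473, 1 of 30 beside 0.0193% of all genes higher) but without any one of the 12 libraries it was not (0 of 12). *Gbp3* (0.85, adjusted p = 0.0214), *Gbp5* (0.82, adjusted p = 0.0109) and the GTPase *Igtp* (0.72, adjusted p = 0.0318) were called higher in aCSF1R than in control in that model (3 of 30, beside 0.0774% of all genes higher). Those 3 calls held in 8, 11 and 5 of the 12 fits that left out 1 library, and all 3 were lost without control tumor 5, the one lower-sum control. *Gbp5* in BF10 against control was at 1.13 (adjusted p = 0.0594), short of the threshold.

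**Figure D4:**
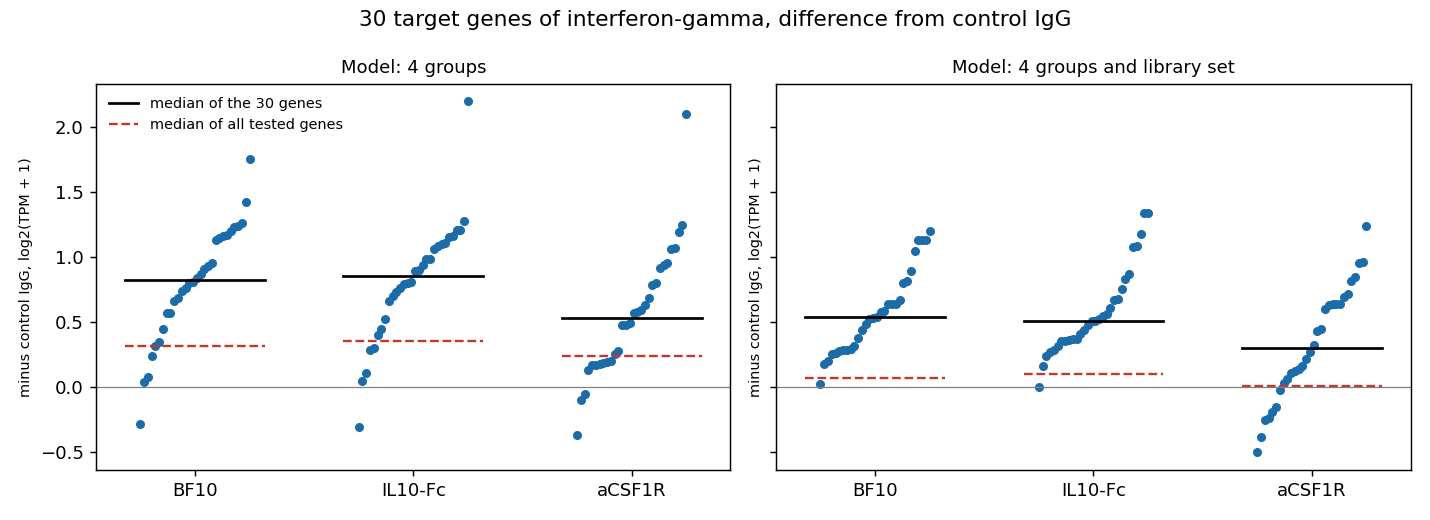
Difference from control IgG in log2(TPM + 1) (vertical axis) of 30 target genes of interferon-gamma, 1 point per gene in rising order, for BF10, IL10-Fc and aCSF1R. Left, the model of 4 groups, and right, the model with the library set as a term. Solid lines are the median of the 30 genes (0.82, 0.85 and 0.53 at left, 0.54, 0.51 and 0.30 at right) and dashed lines that of all tested genes.

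Of 17 other signalling partners and regulators of the pathway (kinases, STAT and IRF factors, phosphatases) 0 were called in each comparison. Their differences from control were positive in 17, 17 and 15 of 17. The medians were 0.76, 0.77 and 0.57, beside 0.32, 0.35 and 0.24 for all genes. With the library set as a term they were positive in 15, 16 and 12 of 17. The medians were then 0.28, 0.23 and 0.06, beside 0.07, 0.10 and 0.01 for all genes. *Ptpn6*, a phosphatase of blood cells that dampens cytokine receptors, was the only one called with the set as a term. It was higher in BF10 than in aCSF1R by 1.17 (adjusted p = 0.0197, 1 of 17 beside 2.77% of all genes higher), and that call held in 8 of 12 fits that left out 1 library.

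Upstream, 11 of 15 genes tied to the induction of *Ifng* were tested and 0 were called in each comparison. The list held genes of interleukins 12, 15, 18 and 27 and receptor chains for interleukins 12, 15 and 18. It also held the transcription factors *Tbx21*, *Eomes* and *Stat4*. *Ebi3*, a subunit of interleukin-27, was called with the library set as a term, higher in BF10 than in aCSF1R, at 6.22 against 1.098 TPM (1.56, adjusted p = 0.0382, 1 of 11 beside 2.77% of all genes higher), in 3 of 12 fits that left out 1 library. The smallest p against control belonged to *Il15ra*, a receptor chain of interleukin-15, in BF10 (1.15, adjusted p = 0.789), to *Il12rb1*, a receptor chain of interleukin-12, in IL10-Fc (1.22, adjusted p = 0.738) and to *Il18rap*, a receptor chain of interleukin-18, in aCSF1R (0.45, adjusted p = 0.894). The median difference from control was 0.31, 0.35 and 0.19, beside 0.32, 0.35 and 0.24 for all genes. Among T and NK cell markers *Klrk1*, which encodes the activating receptor NKG2D, was called in BF10 against aCSF1R, at 9.66 against 3.13 TPM (1.36, SE 0.26, adjusted p = 0.0445, 1 of 14 beside 0.735% of all genes, each of them higher), but in only 1 of the 12 fits that left out 1 library. With the set as a term that call was made in 12 of 12 fits (adjusted p at most 0.0137). In that model *Klrk1* was also called lower in aCSF1R than in control, at 8.56 TPM (-1.16, adjusted p = 0.0105, lost only without aCSF1R tumor 8), and higher in IL10-Fc than in aCSF1R, at 7.96 TPM (1.12, adjusted p = 0.0102, beside 2.12% of all genes higher, lost only without IL10-Fc tumor 2 or 4).

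Beside *Ido1*, 8 of 9 other genes of tryptophan uptake and breakdown were tested and 0 were called in each comparison. The smallest p in aCSF1R against control was that of *Kynu*, which encodes kynureninase further down the route, at 0.37 against 1.97 TPM (-1.12, SE 0.26, adjusted p = 0.154). Its difference was opposite in sign to that of *Ido1* in the same tumors. *Haao*, another enzyme of the route, was called only with the set as a term, higher in BF10 than in aCSF1R by 1.33 (adjusted p = 0.0237, 1 of 8 beside 2.77% of all genes higher), in 7 of 12 fits that left out 1 library. Type I interferon genes, which share many targets with interferon-gamma, had 12 of 13 tested and 0 called. Their median difference from control was 0.59 in BF10, 0.29 in IL10-Fc and 0.80 in aCSF1R, beside 0.32, 0.35 and 0.24 for all genes. Of the dendritic cell markers, a cell type known for *Ido1*, 8 of 10 were tested and 0 called. Their medians were -0.05, -0.06 and 0.07, beside the same values for all genes.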

How the data were processed

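RNA from 12 tumors was extracted with TRIzol and made into stranded mRNA libraries for an Illumina NextSeq, per the labels. The authors deposited FPKM values with 2 decimals for 55401 genes on mm10/GRCm38. The submitters' processing notes name STAR 2.7.5a, RSEM 1.3.3 and DESeq2 1.28.0, without their roles. A further 4 deposited tables hold the authors' own comparisons (fold changes, p-values and mean counts) and were not used. All 12 value columns were matched to samples by name and 0 were left over.

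Since FPKM are no counts, count models were left out. Each library was brought to the same total, the scale of TPM, and 15504 of the 34194 genes above 0 in at least 1 library reached 1 TPM or more in 3 or more libraries. limma 3.58.1 (eBayes with trend, R 4.3.3) was fitted to log2(TPM + 1) with a pseudocount of 1, 1 mean per group and 8 residual degrees of freedom. The code was tested on simulated data with the same spread for each gene and no library sets. That check does not show which changes could be found in these tumors. Adjustment was over all 15504 genes. Reads per library were estimated from the steps of low FPKM values in short genes, and reads per gene from these and the longest transcript, both approximate. The set of a library was its FPKM sum above or below 700000. The alternatives were FPKM as deposited, median-of-ratios scaling, a pseudocount of 0.1, no filter, the library set as a term, lower-sum libraries only, sample quality weights, fits of 2 groups only, a replicate block and leaving out each library. The last together with the set term, and for single calls, and the overlap of groups on other scales were added after seeing the data.

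The members, the lists and the set boundary were chosen with earlier results of these data known. Named genes are the 7 members, the 3 genes most like each, and from each list the called genes (up to 4) or that with the smallest p. Some single genes of the lists are not reported here. Gene positions are those of GRCm38.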

Additional observations from a re-analysis of the deposited data

How the results depend on the processing

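The count of core genes called stayed at 0 in every comparison under FPKM as deposited, median-of-ratios scaling, a pseudocount of 0.1, no filter, the library set as a term, lower-sum libraries only, fits of 2 groups only, the replicate block and each library left out, in 223 settings and comparisons without weights. Leaving out 1 library gave 0 called in each comparison. Sample quality weights changed it. They called 3 of 7 in BF10 against control (57.8% of all genes), 3 in IL10-Fc against control (59.8%), 2 in aCSF1R against control (63.8%), 1 in IL10-Fc against aCSF1R (12.7%) and 6 over the 4 groups (82.6%). The weights ran from 0.0736 (aCSF1R tumor 8) to 61.7 (IL10-Fc tumor 4), and their estimation stopped before its tolerance was reached. Of 42 differences, the direction was that of the reported fit in 42 with a pseudocount of 0.1, no filter, the library set as a term and fits of 2 groups, in 39 with FPKM as deposited, 36 in lower-sum libraries only, 35 with median-of-ratios scaling, 35 with weights and 31 with the replicate block. With 1 library left out, 17 of the 42 changed sign at least once, among them 7 of 7 in BF10 against IL10-Fc. The relations of *Ifng* past the threshold stayed at 0 of 6 under each alternative run.

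For the replicate block the number in the title was taken as a block, with 0 core genes called in each comparison and 2 residual degrees of freedom. The 7 pairs of libraries with the same number had deviations from their group means that correlated at -0.66 to 0.42. The 2 pairs within a library set were positive and the 5 pairs across sets negative, so this check does not settle whether the numbers pair the samples, and the labels do not say. Over all genes, counts that moved by more than 1.5 times with the set as a term were 312 against 88 (aCSF1R against control), 437 against 114 (BF10 against aCSF1R), 330 against 84 (IL10-Fc against aCSF1R) and 329 against 81 (4 groups). With 1 library left out those counts ran over 55 to 91, 54 to 108, 24 to 92 and 21 to 81. With 2 groups only they were 4, 0 and 12 for the first 3, with lower-sum libraries only 34, 155, 68 and 40, and with the block 0, 1, 1 and 0. The reported fit called 0 genes in BF10 and 1 in IL10-Fc against control. The low depth of *Ifng* and the single lower-sum control tumor limit what can be seen.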
